A study of Mus musculus with 8 samples.

Results

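Calmodulin is the small calcium sensor through which rising calcium reaches kinases, phosphatases and other enzymes. The genes described here are the 5 named Calm2, Calm3, Calm4, Calm5 and Calml3 in mouse cells in which the transcription factor Runx1 can be switched on with doxycycline. They were taken as every array probe whose RefSeq entry carries 1 of these symbols, which gave 8 probes of the 55681 on the array and 5 genes of 20145. The genes were chosen with their response to doxycycline already known. Their differences between the groups are therefore a description, with no p-value, and whether the rule used for all genes calls them is no evidence about them. With doxycycline the probes of Calm4 and Calm5, genes known from skin, went from signals not well above background to measurable signals on every induced array. So did 1 of the 2 probes of Calml3, a calmodulin-like gene of epithelia, while its other probe did not. Calm2 and Calm3, which encode calmodulin itself, were bright in both groups, and their groups overlapped.

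Gene expression was measured on Agilent 1-colour arrays in hemogenic endothelium of strain C57BL/6, the endothelial stage from which blood cells form. The cells came from embryonic stem cells through embryoid bodies of 3.25 days, 2 rounds of selection for the receptor Flk-1 and a final culture of 2 days. All groups carried the inducible Runx1 (iRUNX1, a Tet-on system). The 3 uninduced replicates had no doxycycline, and the 3 induced replicates received 0.3 µl/ml overnight, a dose printed as the labels give it. Each group had 1 further array titled a technical replicate, whose source RNA the labels do not name. These 2 arrays are given apart as technical repeats and entered no test, save in 1 alternative fit that adds them. The series text calls the replicates independent and biological, and nothing more is said of separate cultures. No array of doxycycline-treated cells that lack iRUNX1 was analysed here, and each difference therefore sets iRUNX1 cells with the drug against iRUNX1 cells without it.

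A calmodulin molecule binds calcium through EF-hand loops, changes shape and wraps around a short helix of its target protein. Several unlinked genes, Calm2 and Calm3 among them, encode the identical calmodulin protein in nearly all cells. Calm4 and Calm5 encode related EF-hand proteins first known from skin, where Calm4 is also called skin calmodulin-related factor, and Calml3 encodes a calmodulin-like protein best known from epithelia.

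The sequences just before the annotated starts are shown because the genes that responded together lie side by side. RefSeq starts of the mouse assembly GRCm38.p6 were matched for 3 of the 5 genes, Calm3, Calm4 and Calm5. Each sequence is the 250 bases before the start, 5′ to 3′ on the strand of the gene. The Calm3 window is chr7:16924033-16924282 on the minus strand, with every CG pair in capitals. The Calm4 window is chr13:3837507-3837756 and the Calm5 window chr13:3853923-3854172, both on the plus strand. In these 2, the longer stretch in capitals is a match on the opposite strand to GGAAGT, a motif of ETS factors. The shorter one is such a match to GATAA, a motif of factors of the Gata family.
Calm3: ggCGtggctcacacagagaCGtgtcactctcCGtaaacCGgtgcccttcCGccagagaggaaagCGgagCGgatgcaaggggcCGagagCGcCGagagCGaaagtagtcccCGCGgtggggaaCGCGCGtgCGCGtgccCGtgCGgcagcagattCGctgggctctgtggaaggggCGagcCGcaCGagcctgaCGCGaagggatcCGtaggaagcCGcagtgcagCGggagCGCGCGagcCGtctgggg
Calm4: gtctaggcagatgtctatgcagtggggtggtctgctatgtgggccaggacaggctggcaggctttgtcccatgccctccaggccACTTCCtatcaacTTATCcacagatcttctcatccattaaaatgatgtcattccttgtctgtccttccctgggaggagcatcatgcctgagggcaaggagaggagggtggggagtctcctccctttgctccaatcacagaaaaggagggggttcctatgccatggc
Calm5: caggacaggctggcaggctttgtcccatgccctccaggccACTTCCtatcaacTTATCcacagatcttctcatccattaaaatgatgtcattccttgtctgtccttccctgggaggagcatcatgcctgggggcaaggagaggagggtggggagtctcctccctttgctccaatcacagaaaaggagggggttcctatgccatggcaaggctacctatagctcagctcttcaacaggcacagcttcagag
The Calm3 window held 33 CG pairs with a GC content of 69.2%, and 96.0% of the 32851 RefSeq promoters had fewer. The Calm4 and Calm5 windows held 0 CG pairs, as did 7.87% of all promoters, with a GC content of 54.4% and 53.6%. The median over all promoters was 6 CG pairs and a GC content of 52.4%.

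**Figure D1:**
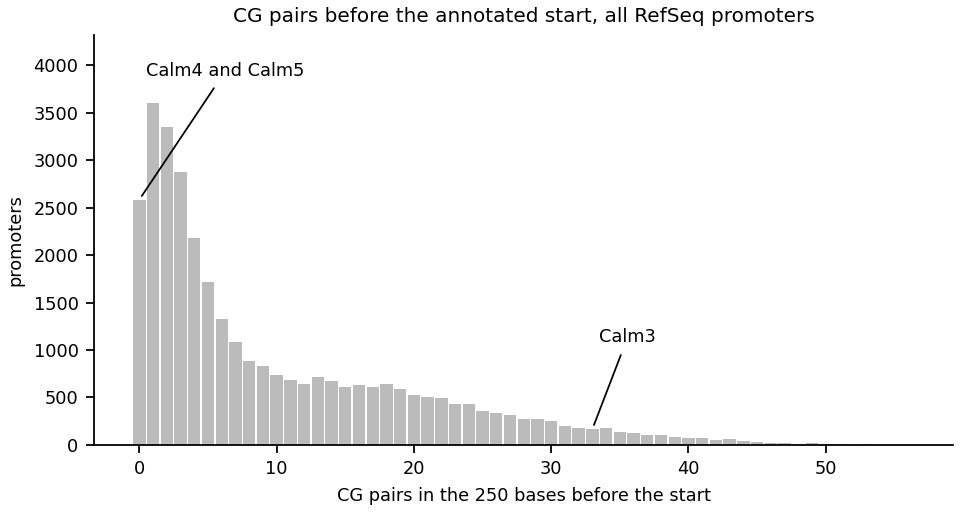
The x axis is the number of CG pairs in the 250 bases before the annotated start, the y axis the number of RefSeq promoters with that number, and the arrows mark the windows of 3 calmodulin and calmodulin-like genes. Calm4 and Calm5 stand at 0 pairs and Calm3 at 33, in the upper tail.

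The Calm4 and Calm5 windows were near copies of each other, shifted by 44 bases relative to the annotated starts. Of 256 bases that the 2 windows shared once 50 bases after each start were included, 255 were identical (99.6%). The single difference was A174G, counted from 1 at the first base of the Calm4 window, with the Calm4 base first. The starts lay 16416 bases apart. The motif TGTGGT, the core bound by Runx proteins, was in 14.05% of all promoters on either strand, and its variant TGCGGT in 5.10%. Neither was in the windows of Calm3, Calm4 or Calm5. GATAA was in 22.6% of promoters and lay 153 bases before the start of Calm4 and 197 before that of Calm5. GGAAGT was in 19.7% and lay 166 and 210 bases before those starts. The Calm3 window held neither of these 2. The motifs searched do not overlap each other in the windows, and a match describes letters and shows no binding.

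Signals below are processed signals, the scanner's spot intensity after background subtraction, on a linear scale. Differences are in log2 signal relative to the 75th percentile of the same array, as induced minus uninduced, with a standard error (SE) from the limma fit over all genes. Levels of different probes are not compared, since probes differ in how brightly they report RNA. In RNA from a whole culture, more cells of a type and more RNA per cell cannot be told apart.

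Calm2 is a calmodulin gene and was among the bright probes of these arrays. Its brighter probe, A_55_P2129234, read 63955, 30846 and 29101 on uninduced replicates 1, 2 and 3. On induced replicates 1, 2 and 3 it read 70589, 43994 and 54954. Replicate 1 was the brightest array of each group, as it was for the 75th percentile. Relative to that percentile the level was 6.43 ± 0.08 (SD, n = 3) without and 6.35 ± 0.27 with doxycycline, and the groups overlapped. The difference was -0.08 (SE 0.18), with -0.33, -0.14 and 0.23 in the 3 replicate pairs, and it was 0.08 when arrays were centred on their medians. The second Calm2 probe, A_55_P2129232, gave a difference of -0.06 ± 0.14 (SD over 3 pairs), and the probes had a correlation of 0.949 over the 8 arrays. The technical repeats stood apart for this gene. The brighter probe read 42896 on the uninduced repeat and 130852 on the induced one, a difference of 0.82 after scaling, above that of each replicate pair.

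Calm3 encodes the same protein from another chromosome. Its probe A_55_P2021841 read 6798, 4255 and 4317 on the uninduced replicates. It read 11120, 6931 and 5618 on the induced ones. Every induced array was brighter than the uninduced array of its number, as was the array's 75th percentile. After scaling, the level was 3.48 ± 0.20 (SD, n = 3) without and 3.48 ± 0.09 with doxycycline. The difference was -0.01 (SE 0.16), with 0.23, 0.05 and -0.30 in the pairs, so that neither its sign nor that of Calm2 was the same in all pairs. Centred on array medians it was 0.15. The second Calm3 probe, A_52_P140356, gave 0.15 ± 0.25 (SD over 3 pairs). The 2 probes had a correlation of 0.774 over the 8 arrays, lower than that of the Calm2 probes. On the technical repeats they gave -0.33 and -0.98.

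Calm4, the skin calmodulin-related factor, differed the most of the 5 genes. Probe A_52_P576720 read 6.87, 6.08 and 3.49 on the uninduced replicates and was not well above background on any. It read 896, 993 and 1080 on the induced replicates and was well above background on all 3. The groups did not overlap, and the 3 induced signals lay close together. Relative to the 75th percentile the means were -6.41 ± 0.39 and 0.54 ± 0.58 (SD, n = 3), a difference of 6.95 (SE 0.34). The pairs gave 6.55, 6.70 and 7.59. Since the uninduced signals were not well above background, only a lower bound of the fold is measured. Calm4 was at least 60.3-fold higher with doxycycline, where the uninduced level on each array is taken as the dimmest signal among probes well above background, or as that of Calm4 itself where brighter. The uninduced technical repeat read 2.24, not well above background, and the induced one 2748, the brightest Calm4 signal of the 8 arrays.

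Calm5, a relative of Calm4 that lies beside it, followed the same course at a dimmer probe signal. Probe A_52_P329414 read 2.96, 2.31 and 3.63 on the uninduced replicates. On the induced replicates it read 102, 173 and 170. It rose above the background call on all 3 induced and 0 of the 3 uninduced arrays, with no overlap. The means were -7.26 ± 0.68 and -2.24 ± 0.89 (SD, n = 3), a difference of 5.02 (SE 0.51) with 4.62, 5.57 and 4.86 in the pairs. Calm5 was at least 8.80-fold higher with doxycycline. The technical repeats read 2.33 and 403.

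Calml3, the epithelial calmodulin-like gene, had the smallest difference of the 3. Probe A_51_P137709 read 2.89, 2.19 and 3.30 on the uninduced replicates. It read 17.6, 36.1 and 50.6 on the induced ones. These are low signals, close to the limit of the arrays, although the groups did not overlap and the probe was well above background on 3 of 3 induced arrays. Before background subtraction the spot read 33, 31.5 and 30 without and 50, 69 and 75 with doxycycline, over a local background of 21 to 24 and 23 to 26. The means relative to the 75th percentile were -7.34 ± 0.63 and -4.42 ± 1.23 (SD, n = 3). The difference was 2.92 (SE 0.63), with 2.13, 3.39 and 3.25 in the pairs, and the bound was at least 1.94-fold. This bound, like the others, sets group means against each other and need not hold for each pair. Induced replicate 1 read -5.79, below the dimmest signal well above background on uninduced replicates 2 (-5.45) and 3 (-4.72). The technical repeats read 2.14 and 80.2. A second probe for this gene, A_55_P2083317, did not show the rise. It read 22.3, 5.80 and 2.68 without and 10.9, 11.97 and 3.81 with doxycycline, was well above background on uninduced replicate 1 and the uninduced technical repeat alone, and gave a difference of -0.43 ± 0.98 (SD over 3 pairs). The 2 Calml3 probes therefore disagree, and the part of the transcript each matches was not used here.

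**Figure D2:**
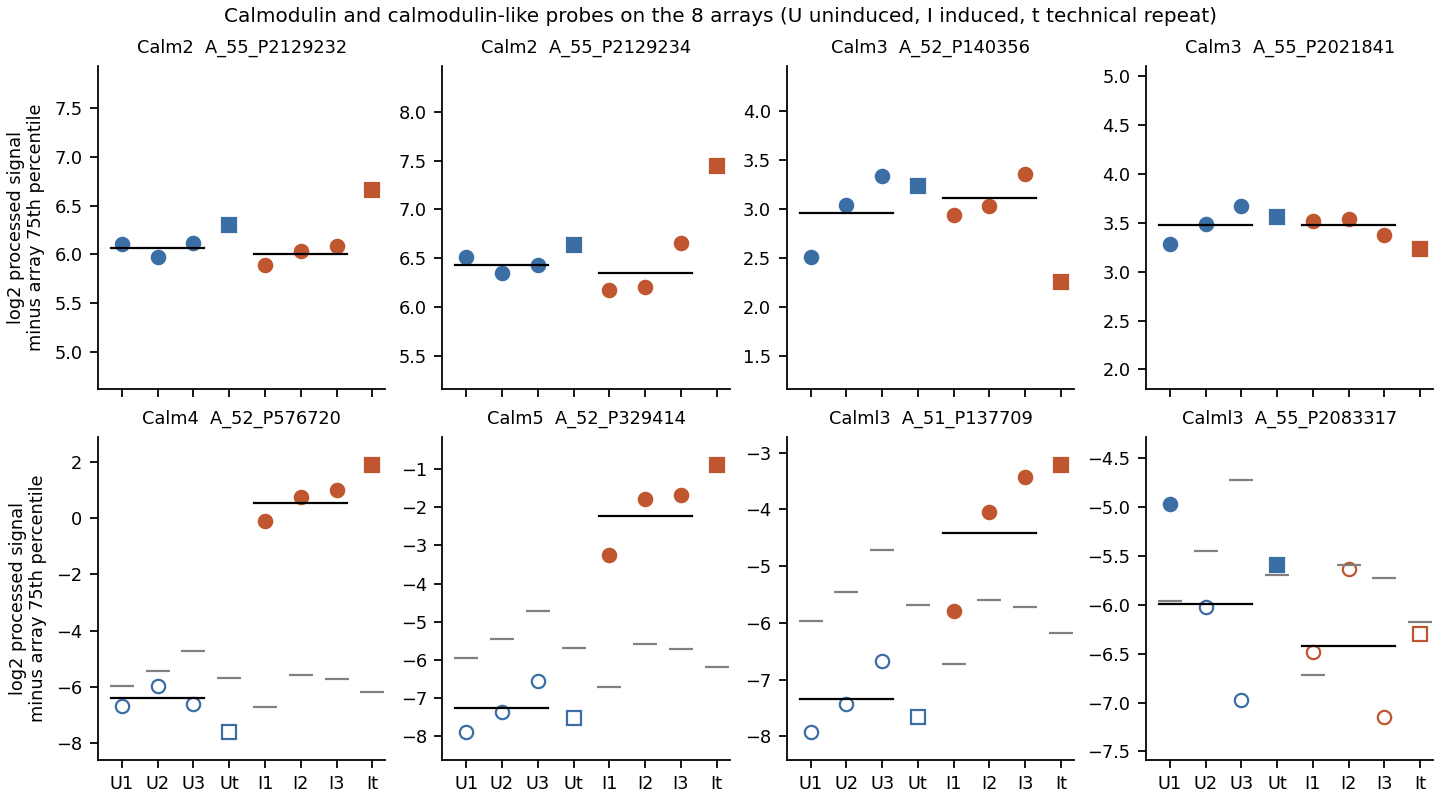
Each panel is 1 probe, with the arrays on the x axis (U uninduced, I induced, with the replicate number, t technical repeat) and the log2 processed signal minus the array's 75th percentile on the y axis. Filled points are well above background, open ones are not, black lines are means of 3 replicates and grey dashes are the lowest signal well above background on that array; each panel has its own range. Calm2 and Calm3 overlap between groups, Calm4, Calm5 and the first Calml3 probe are open without and filled with doxycycline, and the second Calml3 probe shows no step between the groups.

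The sizes of these differences depend on how the background is treated, because the uninduced signals lie in it. With the normexp background correction at an offset of 50 the differences were 3.27 for Calm4, 1.25 for Calm5 and 0.067 for Calml3. Without any background subtraction they were 4.08, 2.03 and 0.45. The order of the 3 genes was the same under each treatment. Scaling to spike-in RNA in place of the 75th percentile gave 8.07, 6.15 and 4.05, and it gave 1.05 for Calm2 and 1.12 for Calm3, beside a median of 1.22 over all genes. Relative to that median neither of the calmodulin genes was higher with doxycycline.

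**Figure D3:**
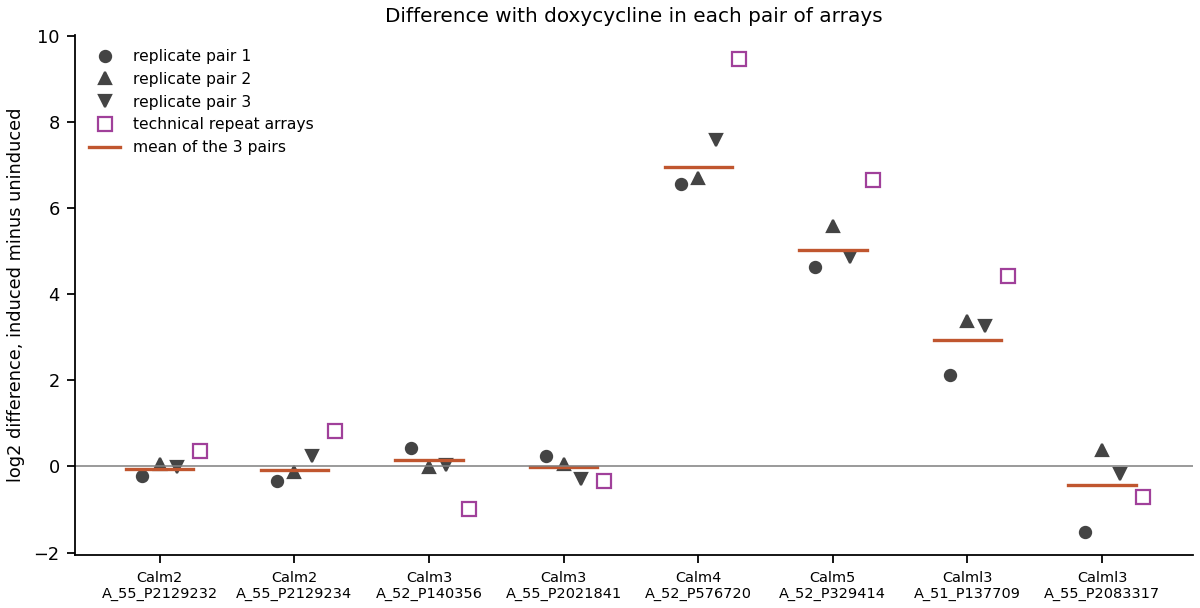
The y axis is the log2 difference, induced minus uninduced, of each of the 8 probes on the x axis. Black symbols are the 3 replicate pairs, red lines their means and open squares the technical repeat pair; Calm4 has a mean of 6.95, Calm5 of 5.02 and the first Calml3 probe of 2.92, and the others lie around 0.

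By the rule used for all genes, an adjusted p under 0.05 in limma with Benjamini-Hochberg adjustment, 3 of the 5 genes would be called higher, 0 lower and 2 neither. Of 14503 genes tested, 4.14% were called higher. Groups did not overlap, with induced above, for the same 3 genes and for 19.6% of all genes, and with induced below for 0 of the 5 and for 8.71%. These genes were picked from this comparison, so their counts are no test of them and nothing is read from them. In the order of fitted differences Calm4 was number 7, Calm5 number 23 and Calml3 number 145 of 14503, while Calm3 was number 8632 and Calm2 number 9597. A total of 132 genes cleared the background on all 3 induced but 0 uninduced arrays. By the lower bound of the fold, Calm4 was number 4 of these, Calm5 number 23 and Calml3 number 81, and the median bound was 2.66-fold. The count of 132 also depends on how dim a signal each array resolves, and the reverse was not counted. The dimmest signal well above background was -5.96, -5.45 and -4.72 on the uninduced replicates, relative to the 75th percentile. On the induced replicates it was lower in each pair, at -6.72, -5.59 and -5.72.

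The probes of Calm4 and Calm5 and the first Calml3 probe, A_51_P137709, varied together among the arrays. Over all 8 arrays the correlation was 0.985 between Calm4 and Calm5, 0.978 between Calm5 and Calml3 and 0.942 between Calm4 and Calml3. These values share the step between the groups and are a description. The second Calml3 probe, A_55_P2083317, did not follow them. Its correlation was -0.38 with Calm4, -0.44 with Calm5 and -0.48 with the first Calml3 probe. Among the 4 induced arrays Calm4, Calm5 and the first Calml3 probe were lowest on replicate 1 and highest on the technical repeat relative to the 75th percentile. Calm4 read -0.12, 0.74, 0.99 and 1.87 there, Calm5 -3.26, -1.78, -1.68 and -0.90, and Calml3 -5.79, -4.04, -3.42 and -3.22, with the technical repeat last. Correlations of the Calm3 probes with the Calm2 probes over the 8 arrays lay between -0.67 and -0.51. Since Calm4 and Calm5 are close copies of each other at their starts, a probe for either might also bind the other's RNA, and this was not tested because the probe sequences were not used here.

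Calml3, Calm4 and Calm5 stand next to each other in that order among the protein-coding genes of chromosome 13. Calm2 and Calm3 are on chromosomes 17 and 7. Of the 13 other genes within 10 places of the chromosome 13 genes in the reference table, 11 were on the array and 5 could be tested. These were Gdi2, Tasor2, Net1, Akr1c13 and Akr1c12, and 0 of the 5 passed the threshold, beside 6.31% of all genes. Net1, the next gene after Calm5, had a difference of 1.19 (SE 0.27, limma adjusted p = 0.0517). Akr1c13 and Akr1c12, aldo-keto reductases further along, had differences of 0.84 (adjusted p = 0.0666) and 0.91 (adjusted p = 0.0881). With the replicate number as a block Akr1c13 passed at 0.0395 and Akr1c12 at 0.0348, and Net1 did not at 0.0530. In that fit 16.2% of all genes were called. Gdi2 and Tasor2, on the other side, had differences of 0.15 and 0.33. Without uninduced replicate 1, 3 of the 5 passed, beside 824 of all 14503 genes. With spike-in scaling or median centring 1 did, beside 731 and 932 of all genes. The 5 were chosen by position, and all are named.

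**Figure D4:**
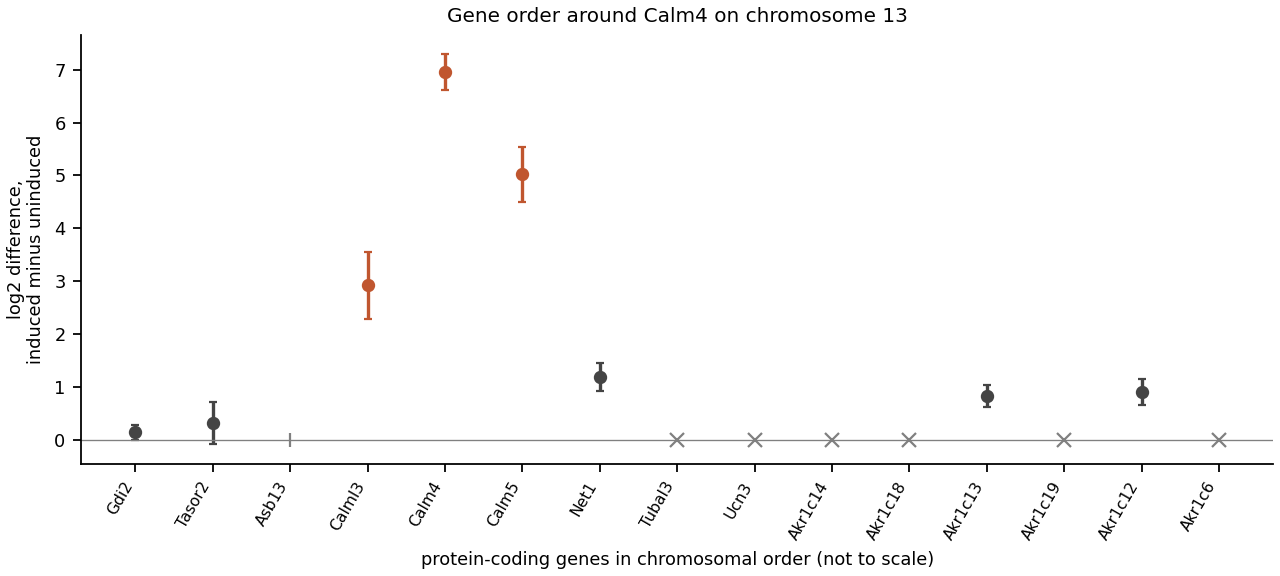
The x axis is the order of protein-coding genes around Calm4 on chromosome 13, not to scale, and the y axis the log2 difference, induced minus uninduced, with its standard error as a bar. Red points are Calml3, Calm4 and Calm5, and dark points are the other measured genes. Grey crosses are on the array without being measured and the grey tick (Asb13) is not on it. The red points stand above the measured genes on either side, of which Net1 is nearest at 1.19.

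Around all 5 genes, 53 neighbours were listed, 48 were on the array and 32 were tested. Ttc7, a scaffold for a lipid kinase at the cell membrane, lies 2 places from Calm2 and was the 1 neighbour that rose, by 0.86 (SE 0.14, limma adjusted p = 0.0188), beside 6.31% of all genes called in either direction. With the replicate block 3 neighbours passed, Ttc7, Akr1c13 and Akr1c12, beside 16.2% of all genes. The Ttc7 call was lost when any 1 of 5 arrays was left out, with adjusted p up to 0.0972 without uninduced replicate 2, and it was kept without uninduced replicate 1, where 5 neighbours passed in all. Among the genes called higher over the whole genome, 494 stood alone in gene order, 36 runs held 2 neighbours, 8 held 3 and 1 held 7. The run of Calml3, Calm4 and Calm5 is 1 of the 8. These genes were chosen with their rise known, so their run is no evidence about them. Calml3 enters it by 1 of its 2 probes, and binding of a Calm4 or Calm5 probe to the other's RNA was not tested. The longest run holds Mcpt4, Mcpt8, Ctsg and a series of granzyme genes, proteases of blood cell granules, on chromosome 14.

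The other genes of the pathway were described from 4 lists with 133 entries together, of which 129 were on the array and 104 were tested. Of these 104, 8 rose and 6 fell, which is 13.5% beside 6.31% of all genes, and their median difference was 0.06 beside 0.09 over all genes. With the replicate block 14 rose and 10 fell, beside 16.2% of all genes. For the counts of each list below, 4.14% of all genes rose and 2.17% fell. With the block these shares were 9.37% and 6.81%. Leaving out 1 array gave between 5 calls (without uninduced replicate 2) and 12 (without uninduced replicate 1). Without uninduced replicate 3 there were 8, and without induced replicate 2 or 3 there were 7. With spike-in scaling 9 rose and 0 fell, beside 720 rises and 11 falls over all genes.

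EF-hand relatives of calmodulin are calcium sensors and buffers of the same fold. Of 41 on the array 26 were tested, 0 rose and 1 fell, which is 3.85% beside 6.31% of all genes. The median difference was -0.09. The gene that fell was Tnnc1, the troponin C of heart and slow muscle, from 1.86 ± 0.54 to 0.28 ± 0.25 (SD, n = 3), a difference of -1.58 (SE 0.29, limma adjusted p = 0.0276). Its call was kept only without uninduced replicate 3, with adjusted p up to 0.111 without uninduced replicate 2. With the replicate block 1 relative passed as a rise, Tesc, the EF-hand protein tescalcin, named after its value was seen. It had a difference of 1.31 (SE 0.40), with a limma adjusted p of 0.120 without and 0.00595 with the block. With spike-in scaling 1 relative rose and 0 fell. By the rule that called the 3 calmodulin-like genes higher, 0 of the 26 relatives rose, a contrast that the choice of the former built in.

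Kinases that calmodulin activates, with their regulators, had 25 genes tested, of which 4 rose and 2 fell, with a median of 0.27. The calls were 24% of those tested, beside 6.31% of all genes. Camk1d, a calmodulin-dependent kinase known from granulocytes, rose from -0.32 ± 0.42 to 1.59 ± 0.61 (SD, n = 3), by 1.91 (SE 0.35, limma adjusted p = 0.0275). Eef2k, which slows protein synthesis by phosphorylating an elongation factor, rose by 1.54 (SE 0.23, adjusted p = 0.0127). Camkk1, a kinase that activates other calmodulin-dependent kinases, rose by 1.07 (SE 0.19, adjusted p = 0.0230). The fourth, Camk2n2, named after its value was seen, encodes an inhibitor of the kinase CaMKII and rose by 0.86 (SE 0.17, adjusted p = 0.0347). The 2 that fell encode catalytic subunits of CaMKII, Camk2b by -1.22 (SE 0.18, adjusted p = 0.0127) and Camk2a by -1.13 (SE 0.19, adjusted p = 0.0192). Both are best known from neurons, and their signals were low, at means of -2.59 ± 0.17 and -2.03 ± 0.19 before the fall. Blocking on the replicate number, 6 kinase genes rose and 3 fell, the added ones being Camk2g (0.56) and Camk4 (0.94) as rises and Mylk3 (-0.81) as a fall. These calls rest on few arrays, since 0 of the 6 remained without uninduced replicate 2. In that fit the adjusted p was 0.117 for Camk2n2, 0.107 for Camk1d, 0.0606 for Eef2k, 0.0934 for Camkk1, 0.0637 for Camk2b and 0.0867 for Camk2a. The call of Camk2n2 was lost whichever array was left out, at an adjusted p of 0.0571 to 0.117. The count was 4 without uninduced or induced replicate 1, 3 without uninduced replicate 3 or induced replicate 2, and 2 without induced replicate 3.

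Calcineurin, the calmodulin-dependent phosphatase, and the NFAT factors it activates had 15 genes tested. Of these 0 passed in limma, beside 6.31% of all genes, and the median was 0.25. In the fit with the replicate block 3 rose, beside 9.37% of all genes. Nfatc2, an NFAT factor of lymphocytes, had a difference of 1.13 with an adjusted p of 0.350 without and 0.0139 with the block. Ppp3cc, a catalytic subunit of calcineurin, had 0.81 with 0.118 and 0.0229. Akap5, an anchoring protein for calcineurin and protein kinase A, had 0.99 with 0.305 and 0.0363. The fitted differences are the same with and without the block, and the block removes the spread that arrays of 1 number share.

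The list of other calmodulin-binding proteins had 38 genes tested, of which 4 rose and 3 fell, with a median of -0.15. The calls were 18.4% of those tested, beside 6.31% of all genes. Nrgn, neurogranin, which holds calmodulin when calcium is low, rose from -1.81 ± 0.34 to 0.15 ± 0.46 (SD, n = 3), by 1.96 (SE 0.29, limma adjusted p = 0.0125). Iqgap2, a scaffold that binds calmodulin through IQ motifs, rose by 1.55 (SE 0.23, adjusted p = 0.0125). Pde1c, a phosphodiesterase that calmodulin activates, rose by 1.41 (SE 0.19, adjusted p = 0.0102), although 1 of its 3 uninduced arrays was near background. Itpka, named after its value was seen, a calmodulin-stimulated inositol trisphosphate kinase, rose by 1.30 (SE 0.16, adjusted p = 0.00725). Another enzyme of the phosphodiesterase family went the other way, since Pde1b fell by 1.12 on the log2 scale (adjusted p = 0.0214). Adcy1, a calmodulin-stimulated adenylate cyclase, had a difference of -2.22 (SE 0.44, adjusted p = 0.0345), and only 1 of its 3 induced signals cleared the background. Its technical repeats differed by 0.66 in the opposite direction. Pcp4l1, a small IQ-motif protein whose binding of calmodulin is not shown here, fell by 1.02 on the log2 scale (adjusted p = 0.0240). The replicate block left 4 rises and gave 6 falls, adding Atp2b1 (-0.65), Cald1 (-0.65) and Nos3 (-1.64). The calls of the dim genes Pde1c and Adcy1 depend on the background treatment. Pde1c had a difference of 0.24 (adjusted p = 0.413) with normexp and 0.51 (adjusted p = 0.142) without background subtraction, and Adcy1 had -0.77 (adjusted p = 0.133) and -0.91 (adjusted p = 0.0788). Leaving out 1 array kept the calls of Iqgap2, Pde1c and Itpka in each of the 6 fits, and that of Adcy1 without induced replicate 1 or 3 alone. The call of Nrgn was lost without induced replicate 2 (adjusted p = 0.0527), and 0 of the 3 falls remained without uninduced replicate 3 or induced replicate 2. Scaled to spike-in RNA, the differences of Pde1b and Pcp4l1 were 0.0070 and 0.11, below the median of 1.22 over all genes there.

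**Figure D5:**
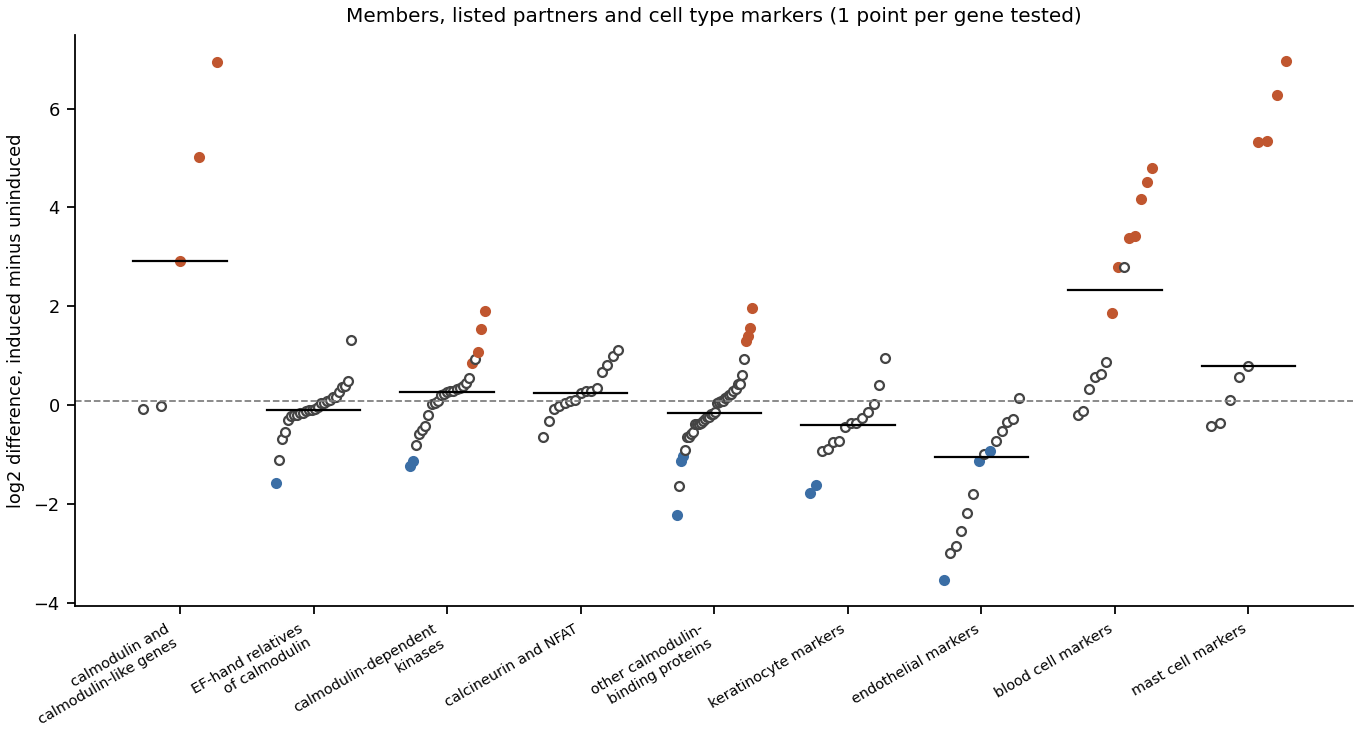
Each point is 1 tested gene of the list on the x axis, and the y axis is its log2 difference, induced minus uninduced. Red points were called higher and blue ones lower at an adjusted p under 0.05, open ones neither, black lines are list medians and the dashed line is the median of all genes at 0.09; the pathway lists lie around 0 with single genes to either side, while blood and mast cell markers reach above 4.

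Because Calm4, Calm5 and Calml3 are known from skin, markers of keratinocytes were read beside them. Of 26 on the array 14 were tested, 0 rose and 2 fell, Dmkn by -1.77 (limma adjusted p = 0.0268) and Sprr1a by -1.62 (adjusted p = 0.0287). The falls were 14.3% of those tested, beside 2.17% of all genes. The list was also summed as signal relative to the 75th percentile on a linear scale. The sum was 27.3 to 38.4 on the uninduced and 18.8 to 25.3 on the induced arrays, with no overlap and lower values with doxycycline on this scale. Perp, the brightest of the list, weighs most in this sum. Its log2 level went from 4.04 to 3.33, with a limma adjusted p of 0.216, and 0.0214 with the replicate block. The direction turns with the scaling, since the list median was -0.40 relative to the 75th percentile and 0.73 with spike-in scaling, beside 1.22 for all genes there. Of the markers, 10 cleared the background on 0 of the 6 arrays, among them Krt1, Krtdap and Flg2 of the differentiated epidermis and the desmosome genes Dsg3 and Dsc3. Krt5 and Krt14, the keratins of basal keratinocytes, were well above background on all 6 arrays, with differences of 0.02 and -0.36 that did not pass. With the replicate block 1 marker rose (Tgm1, 0.95) and 5 fell, with spike-in scaling 0 did either, and with 1 array left out at most 1 fell.

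The cell type named by the labels was read from its own markers. All 14 endothelial markers were well above background on all 6 arrays. With doxycycline 0 rose and 3 fell, Sox17 by -3.54, Tek by -1.13 and Eng by -0.92, and 8 fell with the replicate block. The 3 falls were 21.4% of the markers, beside 2.17% of all genes, a share of all genes that was 6.81% with the block. With median centring or spike-in scaling 1 fell. Under spike-in scaling the list median went from -1.05 to 0.07, and Eng had a difference of 0.21. Both lay below the median of 1.22 over all genes with that scaling. The call of Tek was lost with median centring (adjusted p = 0.0663) and whichever array was left out (0.0556 to 0.131). In limma 0 markers passed without uninduced replicate 2 or 3 or induced replicate 2, and 1 or 2 without any other array. Their summed level was 97.3 to 282 without and 69.3 to 171 with doxycycline. Of 14 blood cell markers 7 rose and 0 fell, among them the transcription factors Myb (4.79) and Ikzf1 (4.17) and the surface protein Spn (4.51). The rises were 50% of the markers, beside 4.14% of all genes. Ptprc (-0.19) and Cd48 (-0.12), surface proteins of blood cells, did not pass, and Spi1 (fitted difference 2.80), which cleared the background on 0 uninduced arrays, was added by the replicate block. The summed level of the blood list was 5.31 to 9.45 without and 21.4 to 43.0 with doxycycline. Of 9 genes tested on the list of mast cell markers 4 rose and 0 fell, all 4 of them granule proteases of the Mcpt family. The rises were 44.4% of those tested, beside 4.14% of all genes. All 4 were kept through the induced arrays, since they cleared the background on 0 or 1 of the uninduced ones. The filter thus helps to build this share. Where signal was required on all 6 arrays, 0 of 5 genes of this list and 5 of 11 blood cell markers were called, beside 714 of 13490 genes. Genes on this list, Mcpt8 among them, need not be confined to mast cells. Mcpt1 was not well above background without doxycycline and was at least 26.2-fold higher with it. Mcpt8 and Mcpt4 had fitted differences of 6.96 and 5.34, sizes that rest on uninduced signals well above background on 1 of 3 arrays. The protease Tpsb2 (-0.42) and the histamine enzyme Hdc (-0.36) did not pass, and Gata2 (0.79) was added by the replicate block. The sums were 4.35 to 6.45 against 11.4 to 15.0. The mast cell receptor genes Fcer1a and Ms4a2 and the protease Cma1 were not well above background on any array, and Cpa3 was on 1 induced array. With 1 array left out, 6 or 7 blood cell markers and 4 genes of the mast cell list rose. These 7 blood cell markers and 4 Mcpt proteases were thus higher on the arrays where Calm4, Calm5 and Calml3 were higher, the other markers of both lists did not pass, and 0 keratinocyte markers rose in the fit without a block. The part of any cell type in the rise of Calm4, Calm5 and Calml3 was not tested.

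Likeness was measured as Pearson's r with each of the other 14502 genes over the 6 replicate arrays, which for a gene with a large step mainly finds other genes with a step. For Calm4 the 5 most alike were Arl15 (0.999), Pygl, Dok2, AI467606 and Alg8, with differences of 0.60 (Alg8) to 4.38 (Dok2). For Calm5 they were Spn, Fbxo31, Ggt5, Rab37 and Rab38, with differences of 0.70 to 4.51. For Calml3 they were Ret, Ptpn13, Rcor2, Dgkz and Lonp2, with differences of 0.19 to 3.28. Several of these are small steps of the same shape, since r does not read the size of a difference. Calm2 was most like Strbp (0.992), followed by Sh2d5, Ap3d1, Scamp1 and Robo3, and Calm3 most like Wdr38 (0.984), followed by Sun5, Abr, Olfr338 and Cdh12. Genes with r above 0.99 numbered 31 for Calm4, 27 for Calm5, 13 for Calml3, 1 for Calm2 and 0 for Calm3.

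Over the whole array, the share of spots well above background ranged from 55.6% to 70.4%, and 0 were saturated. The processed signal had a 75th percentile of 338 to 699 on the uninduced and 543 to 973 on the induced replicates. Against the 4 brightest E1A spike-in probes it was higher on the induced array by 1.13 ± 0.44 in log2 (SD, n = 3 pairs), and by 0.35 between the technical repeats. Of 14503 genes, 601 rose and 314 fell (2.17%). Rises were 65.7% of the calls, against 76.9% when arrays were centred on their medians and 98.5% with spike-in scaling. A total of 2346 genes were called with the replicate block, and 9.37% of all genes rose and 6.81% fell. Runx1 itself gave no check of the labels, since the part of the gene that its 2 probes match was not used here. Probe A_55_P2183438 read -4.57 ± 0.25 without and -5.60 ± 0.60 with doxycycline relative to the 75th percentile (SD, n = 3), with a limma adjusted p of 0.126, and 0.0214 with the replicate block. The other was not well above background on any replicate array. Calm2, Calm3 and the 3 calmodulin-like genes therefore rest on the labels for which arrays were induced.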

How the data were processed

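Total RNA of 8 samples was hybridised to 8 arrays, all on 1 slide with 1 scan date, so no slide or scan block could be fitted. The authors deposited scanner output with processed and median spot signals as intensity, and flags of 0 or 1. Feature Extraction made it, at version 10.7.3.1 per the file headers and at 10.7.1.1 in the submitters' processing notes, which also list limma. A second deposited file holds log2 values, and of their normalization the sources used here say nothing. Set against the scanner signals over 19450 spots, 2 of its 8 columns (medians 5.36 to 5.38) tracked the array they are named for and 6 tracked another, so it served as an alternative in both readings. Its centring stays unknown.

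Control spots and the 114 to 246 outlier spots of each array were dropped. The log2 of the processed signal minus its 75th percentile on the array was averaged over the spots of each probe. RefSeq accessions named 26582 probes with 1 symbol, several for 0 and none for 29099. A probe was kept if well above background on all 3 arrays of a group, and each gene was represented by its brightest such probe, leaving 14503 genes. Groups were compared with lmFit and eBayes of limma 3.58.1 in R 4.3.3. Tests were two-sided and adjusted over all genes by the Benjamini-Hochberg method, and the code was tested on simulated data. The number of arrays limits the precision, and p-values measure the spread between these samples, which may be technical. A floor for the bounds can lie above or below what a given probe detects.

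Arrays with the same replicate number deviated together from their group means (correlations of 0.65, 0.45 and 0.43 over genes), which pairs them, so values with the number as a block are given where they change a call or move a count by over 1.5 times. Normexp used the median signal, as the files hold no mean signal. The genes, lists and tests were chosen with earlier results of these data known. Named genes are all members and their probes, up to 3 rises and 3 falls per list by size, neighbours past the threshold, the 5 most alike genes of each member, and Runx1. Alternatives were other background corrections, scalings, filters, probe rules, the deposited table, the block, added technical repeats and each array left out.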

Additional observations from a re-analysis of the deposited data

Results flagged for a closer look

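The technical repeat arrays were left out of the main comparison, and in them too Calm4, Calm5 and the first Calml3 probe, A_51_P137709, were higher with induction. The induced repeat was above the uninduced repeat by 9.47 for Calm4, 6.64 for Calm5 and 4.43 for Calml3 on the log2 scale. The uninduced signals were not well above background, so these sizes are not exact. Against the dimmest signal well above background on the uninduced repeat, Calm4 was at least 189.9-fold, Calm5 at least 27.8-fold and Calml3 at least 5.54-fold higher. These values are listed because a signal stood above the uninduced level in arrays outside the main test. Which RNA was hybridised on them is not named in the labels, and with 1 array per group the difference has no replicate check. The second Calml3 probe, A_55_P2083317, went the other way, by -0.71. It was well above background on the uninduced repeat and not on the induced one.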

How the results depend on the processing

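The replicate block, for which the paired arrays give a correlation over 0.4 in each pair, raised the calls from 915 to 2346 over all genes, from 14 to 24 in the pathway lists and from 1 to 3 among the neighbours. Without a filter on dim probes the counts were 534, 8 and 0, and with the technical repeats added 1584 genes and 4 neighbours were called. The fit with the repeats treats each as 1 further independent replicate of its group. If a repeat holds the RNA of a replicate, which the labels do not say, it is not independent, so no weight is put on these counts. Pathway calls were 8 with normexp and 9 with spike-in scaling, and 2 neighbours passed with median centring. Leaving out 1 array gave 378 to 824 genes, 5 to 12 pathway genes and 0 to 5 neighbours. It gave differences of -0.24 to 0.004 for Calm2, -0.11 to 0.09 for Calm3, 6.72 to 7.28 for Calm4, 4.71 to 5.53 for Calm5 and 2.43 to 3.61 for Calml3. Calm4 was 3.27 with normexp, 4.08 without background subtraction, 8.07 with spike-in scaling and 7.58 with the technical repeats added. Calm5 was 1.25, 2.03 and 6.15 and Calml3 0.067, 0.45 and 4.05 under the first 3 of these settings, and spike-in scaling gave 1.05 for Calm2 and 1.12 for Calm3. The deposited table gave 5.51, 4.52 and 1.72 for Calm4, Calm5 and Calml3 with columns taken by the array they track. With columns taken by name it gave 0.38, 0.96 and 0.58, and 0 calls over all genes, in the pathway lists and among the neighbours. In that reading, which mixes the groups, signs turned for Tnnc1 (0.056), Camk1d (-0.54), Camk2b (0.17), Adcy1 (0.047), Pcp4l1 (0.060), Camk2n2 (-0.11), Sox17 (0.33), Tek (0.24), Eng (0.22), Mcpt8 (-0.67), Mcpt1 (-0.60), Mcpt4 (-0.76) and Runx1 (0.22). With spike-in scaling they turned for Pde1b (0.0070), Pcp4l1 (0.11), Eng (0.21) and Runx1 (0.10), all below the median of 1.22 over all genes there. Where no construction of a setting shows why a value moved, the cause was not tested. Requiring signal on all 6 arrays leaves no value for Calm4, Calm5 and Calml3. Signals near background limit these 3 genes, and Calml3 most of all.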
